A study of Homo sapiens with 6 samples.

Results

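The interferon regulatory factors IRF1, IRF2, IRF3, IRF4, IRF5, IRF7, IRF8 and IRF9 were followed in MV4;11 cells 3 h after cortistatin A was added. The 8 genes were chosen by symbol, out of 19775 genes measured, and 13 probe sets name exactly 1 of them. For each gene the probe set with the highest mean over all 6 arrays is the main one, and the others are given beside it. A further probe set that names IRF9 together with a second gene was not used. MV4;11 is an established human line from an acute myeloid leukaemia that carries an MLL-AF4 fusion; it was grown in RPMI medium with serum, and both groups are this 1 line. The groups are 3 arrays of cells kept for 3 h in 25 nM CA (cortistatin A, going by the title of the series) and 3 arrays of cells kept for 3 h in its solvent DMSO. Cortistatin A is an inhibitor of the Mediator-associated kinases, CDK8 and its paralogue CDK19. Nothing in the labels shows that wells of a group were grown as independent cultures, and the p-values therefore reflect the spread among these arrays alone, and that spread may be technical.

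Interferon regulatory factors share an N-terminal DNA-binding domain that reads GAAA repeats, which form the interferon-stimulated response element (ISRE) of many antiviral genes. IRF3, IRF5 and IRF7 lie latent in the cytoplasm and are activated by phosphorylation below nucleic acid sensors and Toll-like receptors, and IRF9 is the DNA-binding partner of STAT proteins activated by type I interferon. IRF1 is an activator induced by interferon gamma, and IRF2 competes with it for the same sites. IRF8 and IRF4 are the haematopoietic members: both bind weakly alone and are recruited to composite sites by ETS factors such as PU.1, IRF8 being known for directing progenitors to monocytes and dendritic cells and IRF4 for its part in lymphocytes and dendritic cells.

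IRF8 was the only one of the 8 genes called, and it was higher with cortistatin A. IRF4 was higher and IRF9 lower by changes of about the same size that missed the threshold. IRF1 and IRF5 had slightly higher and IRF7 slightly lower values, with groups that did not overlap but no call, and the arrays of the groups overlapped for IRF2 and IRF3. All values below are deposited log2 values, differences are cortistatin A minus DMSO on the log2 scale, and an error without the word SD is the standard error from limma. A gene was called at a limma adjusted p under 0.05 (Benjamini-Hochberg over all genes). Levels of different genes rest on different probes and are not set against each other.

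The promoter sequences of the 4 genes on which the results turn most are shown first, IRF8, IRF4 and IRF9 for their size of change and IRF1 because it carries a site known to respond to STAT proteins. They were taken from RefSeq (GRCh38.p14), 250 bases before to 50 after a transcript start, written 5′ to 3′ on the strand of the gene. The table had 9 windows for 5 of the 8 genes, IRF1, IRF4, IRF5, IRF8 and IRF9. Capitals mark the only matches to the motifs searched on both strands. These were the ISRE core (GAAA, any 2 bases, GAAA), the ETS-IRF composite element (GGAA, any 2 bases, GAAA) and the interferon gamma-activated site or GAS (TTC, any 3 bases, GAA). No match overlapped another.
IRF8 (chr16:85902580-85902879, plus strand): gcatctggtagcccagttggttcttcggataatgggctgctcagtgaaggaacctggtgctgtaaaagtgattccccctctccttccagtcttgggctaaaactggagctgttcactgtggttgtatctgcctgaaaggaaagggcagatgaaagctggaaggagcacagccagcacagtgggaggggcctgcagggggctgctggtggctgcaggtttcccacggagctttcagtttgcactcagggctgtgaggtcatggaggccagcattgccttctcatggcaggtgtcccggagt
IRF4 (chr6:391502-391801, plus strand): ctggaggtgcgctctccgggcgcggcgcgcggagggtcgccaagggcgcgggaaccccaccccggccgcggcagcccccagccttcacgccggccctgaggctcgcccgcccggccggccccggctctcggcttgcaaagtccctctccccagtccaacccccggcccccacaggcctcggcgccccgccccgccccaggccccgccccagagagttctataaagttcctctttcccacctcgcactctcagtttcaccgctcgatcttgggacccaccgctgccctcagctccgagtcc
IRF9 (chr14:24161015-24161314, plus strand): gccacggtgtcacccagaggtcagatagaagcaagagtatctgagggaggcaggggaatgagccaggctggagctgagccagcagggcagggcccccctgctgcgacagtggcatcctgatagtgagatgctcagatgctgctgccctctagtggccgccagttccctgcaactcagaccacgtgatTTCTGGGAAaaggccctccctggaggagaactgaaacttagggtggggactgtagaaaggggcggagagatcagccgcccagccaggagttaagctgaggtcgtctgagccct
IRF1 (chr5:132490724-132491023, minus strand): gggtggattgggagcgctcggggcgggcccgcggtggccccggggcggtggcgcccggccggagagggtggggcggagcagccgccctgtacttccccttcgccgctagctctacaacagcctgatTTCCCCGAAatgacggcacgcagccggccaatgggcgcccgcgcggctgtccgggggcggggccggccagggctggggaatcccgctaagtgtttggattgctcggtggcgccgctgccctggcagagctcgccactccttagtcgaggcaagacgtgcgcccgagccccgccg

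The IRF1 window holds 1 GAS match, TTCCCCGAA, and the IRF9 window holds 1, TTCTGGGAA. No GAS, ISRE or composite match lies in the windows of IRF8 and IRF4, which says only that these letters are not in these windows. The transcript starts of both IRF8 windows, chr16:85902830 and chr16:85903015, lie downstream of the first annotated base of the gene, chr16:85899162. No window around that first base was available, so the sequence there was not searched. Of the 35116 windows in the table, 7.66% hold a GAS match, 3.57% an ISRE match and 2.82% a composite match. One of the 4 IRF5 windows, chr7:128940420-128940719, holds a composite match.

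IRF8, annotated at chr16:85899162-85922609 of GRCh38.p14, read 11.77, 11.71 and 11.78 on the cortistatin A arrays, against 11.34, 11.29 and 11.23 on the DMSO arrays. Every cortistatin A array lay above every DMSO array, and the distance between the groups was much wider than the spread within either. The means were 11.76 ± 0.04 with cortistatin A and 11.29 ± 0.06 in DMSO (SD, n = 3 each), a difference of 0.47 ± 0.05 or 1.38-fold, with a 95% interval of 0.34 to 0.60 (limma adjusted p = 0.0248, n = 3 per group). It has 1 probe set, so no other probes of IRF8 bear on the value. IRF8 made 1 of 8 members called, where 0.582% of all genes were called, 0.445% higher and 0.137% lower. Among all genes, 0.576% had a larger change in either direction. The call rested on all 6 arrays: without any 1 of them the difference was 0.44 to 0.50 and the limma adjusted p 0.0960 to 0.138. With all 6 arrays kept, the call also ended when every probe set was tested (limma adjusted p = 0.0761) and when the 3' minus 5' signal of control transcripts, given with the facts on the whole series, was a covariate (0.41, limma adjusted p = 0.380).

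IRF4, at chr6:391752-411443, read 8.23, 8.22 and 8.16 with cortistatin A, against 7.85, 7.71 and 7.84 in DMSO. The groups did not overlap, and the lowest cortistatin A array stood clear of the highest DMSO array. The difference was 0.40 ± 0.06 or 1.32-fold, with an interval of 0.26 to 0.54, and it missed the threshold narrowly (limma adjusted p = 0.0541, n = 3 per group). IRF4 was called when dim genes were left out (limma adjusted p = 0.0157), with arrays centred on housekeeping genes (limma adjusted p = 0.0379) and when variances followed a robust trend with intensity (limma adjusted p = 0.000195). It was not called without any 1 array (limma adjusted p = 0.149 to 0.225) or when every probe set was tested (limma adjusted p = 0.137). Its other probe sets gave another picture. The second had a mean of 3.86, just over the overall probe set median of 3.74, and differed by 0.03, and the third was dim, with a mean of 1.29, and differed by -0.08. Both overlapped between the groups, and averaging the 3 probe sets gave IRF4 a difference of 0.12 (limma adjusted p = 0.546).

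**Figure D1:**
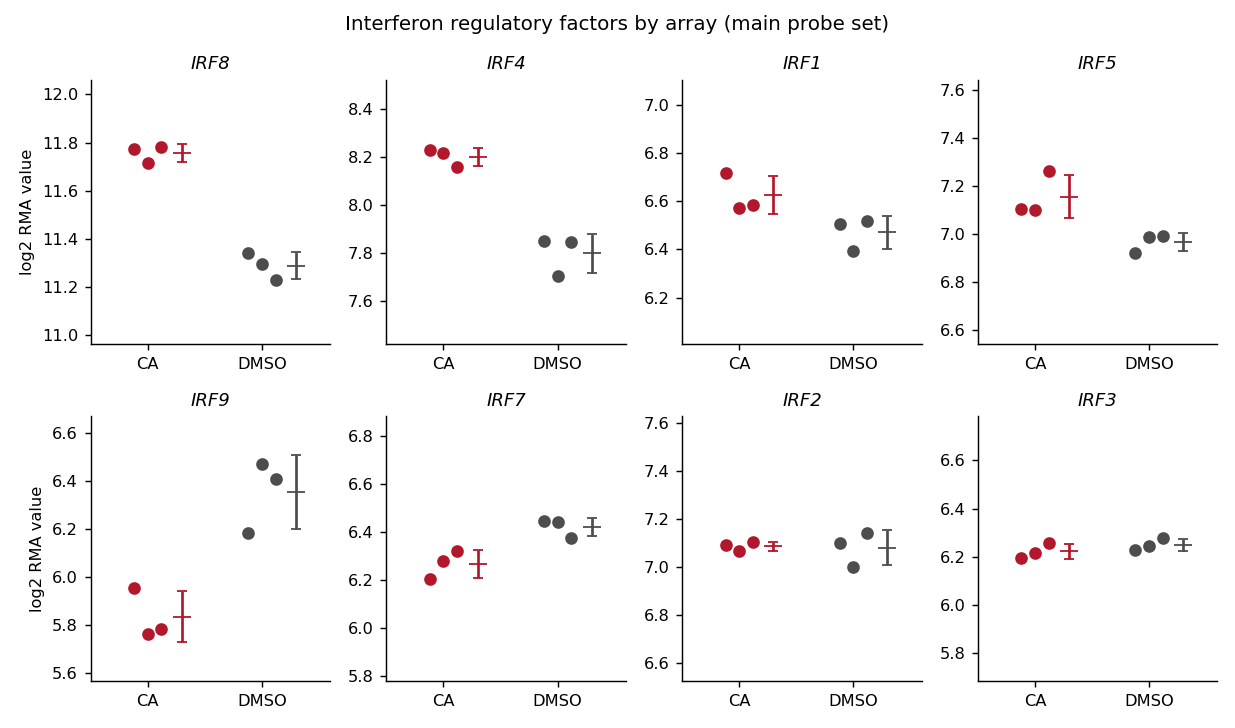
Log2 values of the main probe set of each of the 8 genes on each array, cortistatin A (CA, red) left of DMSO (grey), with a bar for the mean and SD (n = 3 arrays each); every panel spans the same log2 range. IRF8 and IRF4 stood higher with cortistatin A and IRF9 lower, and IRF2 and IRF3 overlapped.

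IRF9 went the other way. It lies at chr14:24161265-24166565 and read 5.96, 5.76 and 5.79 with cortistatin A, against 6.18, 6.47 and 6.41 in DMSO. The groups did not overlap, but the closest arrays, cortistatin A replicate 1 and DMSO replicate 1, were nearer to each other than the means were. The difference of -0.52 ± 0.09, or 1.43-fold lower with cortistatin A, was the largest of the family in size, with an interval of -0.74 to -0.29, and did not pass the threshold (limma adjusted p = 0.0898, n = 3 per group). The spread within the groups, 0.11 with cortistatin A and 0.15 in DMSO (SD, n = 3 each), was wider than that of IRF8. IRF9 was called when dim genes were left out (limma adjusted p = 0.0364) and when variances followed that trend (limma adjusted p = 0.00239). It was not called without any 1 array (limma adjusted p = 0.117 to 0.252) or when every probe set was tested (limma adjusted p = 0.180).

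IRF7, which drives the amplification of type I interferon, was the other member whose cortistatin A arrays all lay below the DMSO arrays. It read 6.20, 6.28 and 6.32 with cortistatin A, against 6.44, 6.44 and 6.38 in DMSO. The groups did not overlap, and the gap between their nearest arrays was narrow. The difference of -0.15 ± 0.05 did not pass (limma adjusted p = 0.314, n = 3 per group), and its interval of -0.28 to -0.02 runs from near 0 to well below it. It has a single probe set, at a locus on chr11:612555-615950.

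IRF1 read 6.72, 6.57 and 6.59 with cortistatin A, against 6.50, 6.39 and 6.52 in DMSO. The groups did not overlap, but the gap between them was narrower than the range within either group. The difference of 0.15 ± 0.06 had an interval of 0.0003 to 0.31 and did not pass (limma adjusted p = 0.395, n = 3 per group). Its second probe set gave 0.11, with groups that overlapped. IRF1 lies at chr5:132481609-132490773.

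IRF5, a driver of inflammatory cytokines in macrophages, read 7.11, 7.10 and 7.26 with cortistatin A, against 6.92, 6.99 and 6.99 in DMSO. All cortistatin A arrays were above the DMSO arrays, replicate 3 most of all. The difference was 0.19 ± 0.06 with an interval of 0.04 to 0.34 (limma adjusted p = 0.284, n = 3 per group). Both other probe sets of IRF5 were higher as well, by 0.11 without overlap and by 0.10 with overlap. None of the 3 passed, and with the 3' minus 5' control signal as a covariate IRF5 was at 0.07. IRF5 lies at chr7:128937032-128950038.

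The members with the smallest differences were IRF2 and IRF3, each with 1 probe set. IRF2 read 7.09, 7.06 and 7.10 with cortistatin A, against 7.10, 7.001 and 7.14 in DMSO. The cortistatin A arrays lay within the DMSO range, and the difference of 0.01 ± 0.06 had an interval of -0.13 to 0.14 (limma adjusted p = 0.976, n = 3 per group). IRF3, the first factor to act below cytosolic nucleic acid sensors, read 6.19, 6.21 and 6.26 with cortistatin A, against 6.23, 6.24 and 6.28 in DMSO. The groups overlapped, and the difference of -0.03 ± 0.05, which turned to 0.03 with housekeeping centring, had an interval of -0.14 to 0.09 (limma adjusted p = 0.861, n = 3 per group). Both intervals lie wholly below that of IRF8. IRF2 lies at chr4:184387729-184474550 and IRF3 at chr19:49659572-49665857.

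**Figure D2:**
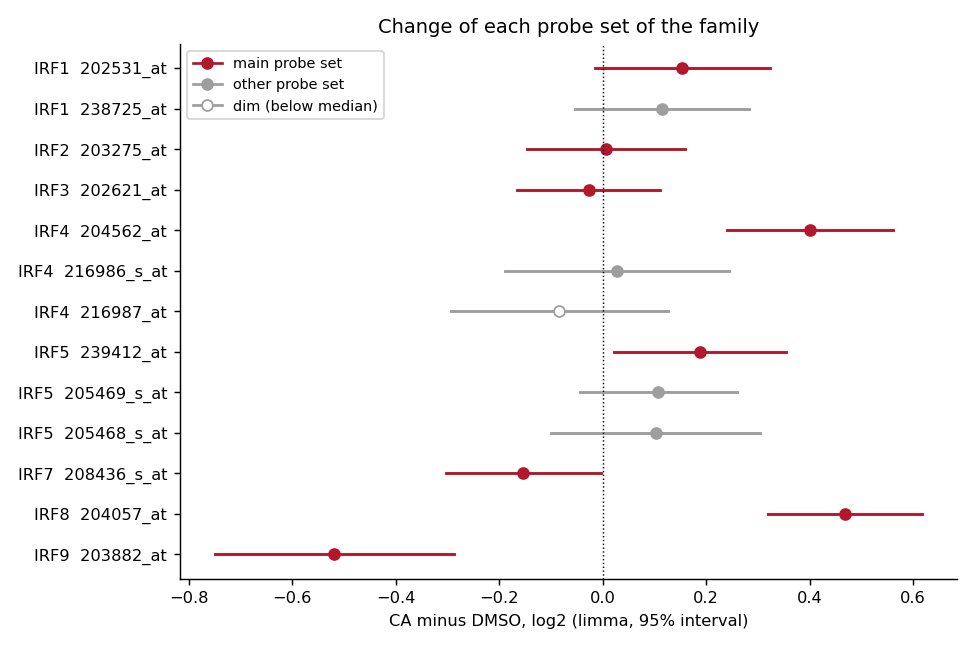
Difference between cortistatin A (CA) and DMSO on the log2 scale for all 13 probe sets of the family, with 95% intervals from a limma fit of all probe sets; red marks the main probe set of a gene, grey the others, and an open point a probe set dimmer than the overall median. The main probe set of IRF4 stands apart from its 2 others, while the 3 points of IRF5 and the 2 of IRF1 all lie above 0.

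Counted over the family, the groups did not overlap for 6 of the 8 genes, 4 higher and 2 lower, where 19.4% of all genes did not overlap, 10.2% higher and 9.22% lower. The same 6 genes had an unadjusted limma p under 0.05, as did 12.6% of all genes. The median change of the 8 genes was 0.08, against 0.0065 over all genes. All 8 main probe sets were brighter than the median of all probe sets, as were those of 12643 of all 19775 genes. The RNA was from whole wells, so a change in the share of cells that carry a transcript and a change in the amount per cell cannot be told apart.

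The genes around the family were described by 9 lists with 186 genes, of which 174 were measured. Over these lists 4 genes were called, all higher: SLC15A4, CEBPA, MPEG1 and MYC. This is 2.30% of the genes measured on the lists, where 0.582% of all genes were called, and the groups did not overlap for 44 of them (25.3%), where 19.4% of all genes did not overlap. The share of 0.582%, 0.445% higher and 0.137% lower, stands beside the calls of each list below. At that share a count of 0 or 1 on a short list says little about the list. Arrays centred on housekeeping genes raise every difference by 0.054 on the log2 scale, so medians closer to 0 than this have no settled sign.

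The activators upstream of IRF3, IRF5 and IRF7 held both the highest and the lowest difference on the 9 lists, with 1 of 24 measured genes called higher, 0 lower and a median of -0.05. SLC15A4, the lysosomal transporter that holds TASL at the membrane so that IRF5 can be phosphorylated, read 8.61, 8.59 and 8.62 with cortistatin A, against 7.92, 7.96 and 7.99 in DMSO. The groups were far apart against a spread of 0.02 with cortistatin A and 0.03 in DMSO (SD, n = 3 each). SLC15A4 rose by 0.65 ± 0.05 or 1.57-fold (limma adjusted p = 0.00838, n = 3 per group), and its second bright probe set differed by 0.62. TASL, the adaptor that recruits IRF5 to SLC15A4, stood on the opposite side and read 9.51, 9.39 and 9.62 with cortistatin A, against 9.88, 9.99 and 10.00 in DMSO. The groups did not overlap, and the difference of TASL was -0.45 ± 0.07 (limma adjusted p = 0.0720, n = 3 per group). It has a single probe set, of the cross-hybridising _x_at type. CGAS, the sensor of cytosolic DNA that signals to IRF3, read 6.42, 6.48 and 6.60 with cortistatin A, against 6.06, 5.96 and 6.15 in DMSO. Its groups did not overlap, and the difference of 0.44 ± 0.07 missed the threshold (limma adjusted p = 0.0723, n = 3 per group). A second bright probe set of CGAS gave 0.25, and without the _x_at and _s_at types only a dim one at 0.01 remained. The calls of SLC15A4, CEBPA, MPEG1 and MYC each ended without any 1 of the 6 arrays, SLC15A4 with limma adjusted p from 0.0684 to 0.0845. They also ended with the 3' minus 5' control signal as a covariate (limma adjusted p = 0.370, 0.374, 0.370 and 0.380), and when every probe set was tested only SLC15A4 of the 4 was called (limma adjusted p = 0.0379).

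**Figure D3:**
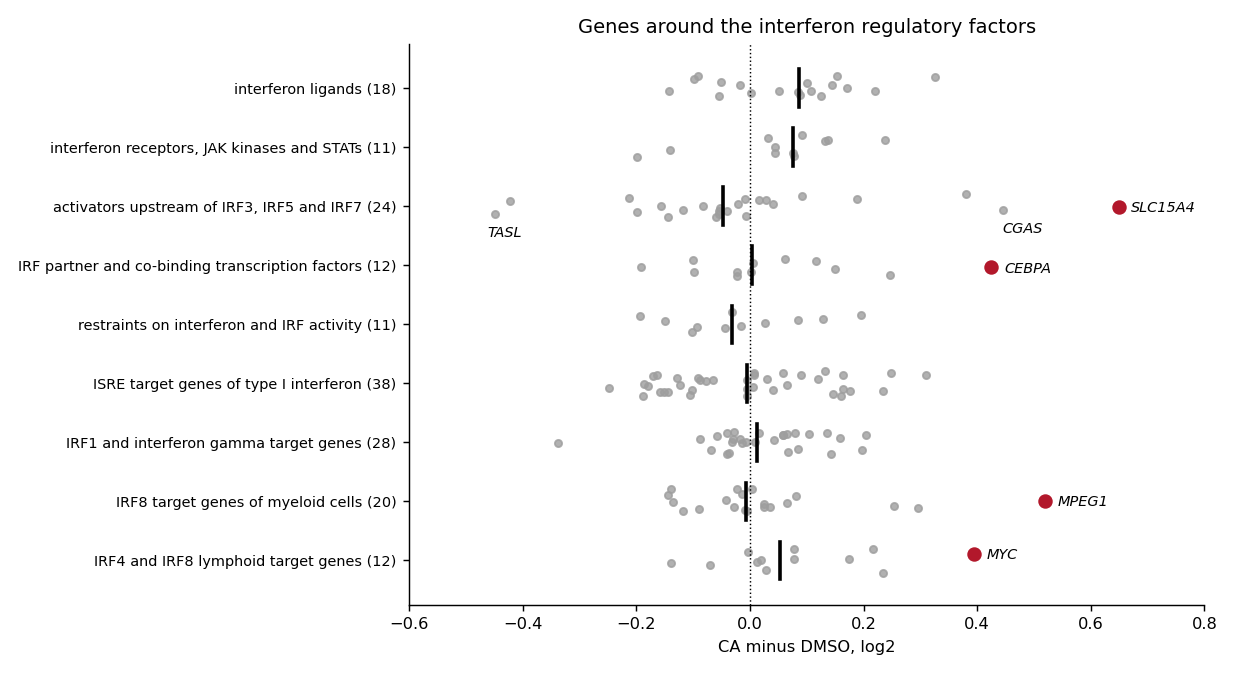
Difference between cortistatin A (CA) and DMSO on the log2 scale for each measured gene of the 9 lists (number measured in brackets), with a black bar at the median of the list; red points passed a limma adjusted p of 0.05. The 4 called genes, SLC15A4, CEBPA, MPEG1 and MYC, lie far from the medians, which are all between -0.05 and 0.09.

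Among factors that bind beside the family, 1 of 12 measured genes was called higher and 0 lower, with a median of 0.003. CEBPA, the master regulator of myeloid progenitors, read 10.84, 10.85 and 10.87 with cortistatin A, against 10.47, 10.42 and 10.40 in DMSO. The groups were separated by many times their own spread, and CEBPA rose by 0.42 ± 0.05 (limma adjusted p = 0.0248, n = 3 per group). IKZF1 (Ikaros), which shares composite sites with IRF4 and IRF8, differed by 0.25 ± 0.05 (limma adjusted p = 0.144), and the ETS repressor ETV6 by 0.15 ± 0.05 (limma adjusted p = 0.326). The groups did not overlap for either gene, and 8 of the 8 other probe sets of IKZF1 and 4 of the 4 of ETV6 had differences above 0. However, the groups overlapped for most of these IKZF1 probe sets, which differed by 0.02 to 0.35. They also overlapped for the ETV6 probe set with the smallest difference, 0.04. Over all 19775 genes, 10365 differences were above 0. SPI1, which encodes PU.1, read 4.36 in both groups and differed by 0.002 (limma adjusted p = 0.996).

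Genes linked to IRF8 in myeloid cells had 1 of 20 measured members called higher, 0 called lower and a median of -0.01. The called gene was MPEG1, which encodes the pore-forming protein perforin-2 of macrophages. It read 9.24, 9.30 and 9.29 with cortistatin A, against 8.73, 8.82 and 8.73 in DMSO. Every cortistatin A array was above every DMSO array, MPEG1 rose by 0.52 ± 0.05 (limma adjusted p = 0.0206, n = 3 per group), and its second probe set differed by 0.51. CYBB, the catalytic subunit of the phagocyte oxidase, differed by 0.25 ± 0.08 (limma adjusted p = 0.277), or 0.04 when its probe sets were averaged, and PML, the scaffold of nuclear bodies, by -0.14 ± 0.07 (limma adjusted p = 0.450). Lysozyme (LYZ), cystatin C (CST3) and cathepsin S (CTSS) differed by 0.02, -0.09 and -0.12 and were not called. The groups did not overlap for CST3 and CTSS. Over the list, 3 genes were higher and 3 lower without overlap, where 10.2% of all genes were higher and 9.22% lower without overlap.

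Genes linked to IRF4 and IRF8 in lymphocytes had 1 of 12 measured members called higher, 0 lower and a median of 0.05. MYC, the growth regulator that IRF4 is known to act on in myeloma, read 11.12, 11.15 and 11.13 with cortistatin A, against 10.76, 10.69 and 10.77 in DMSO. The groups were well apart, and MYC rose by 0.39 ± 0.05 (limma adjusted p = 0.0332, n = 3 per group). XBP1, a plasma cell and stress factor, differed by 0.22 ± 0.05 (limma adjusted p = 0.184), and its second probe set by 0.04 with overlap. The dim gene SLAMF7 differed by 0.23 ± 0.10 with groups that overlapped (limma adjusted p = 0.410). Both other probe sets of SLAMF7 had the opposite sign, at -0.15 and -0.14, and the mean of the 3 was -0.020.

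**Figure D4:**
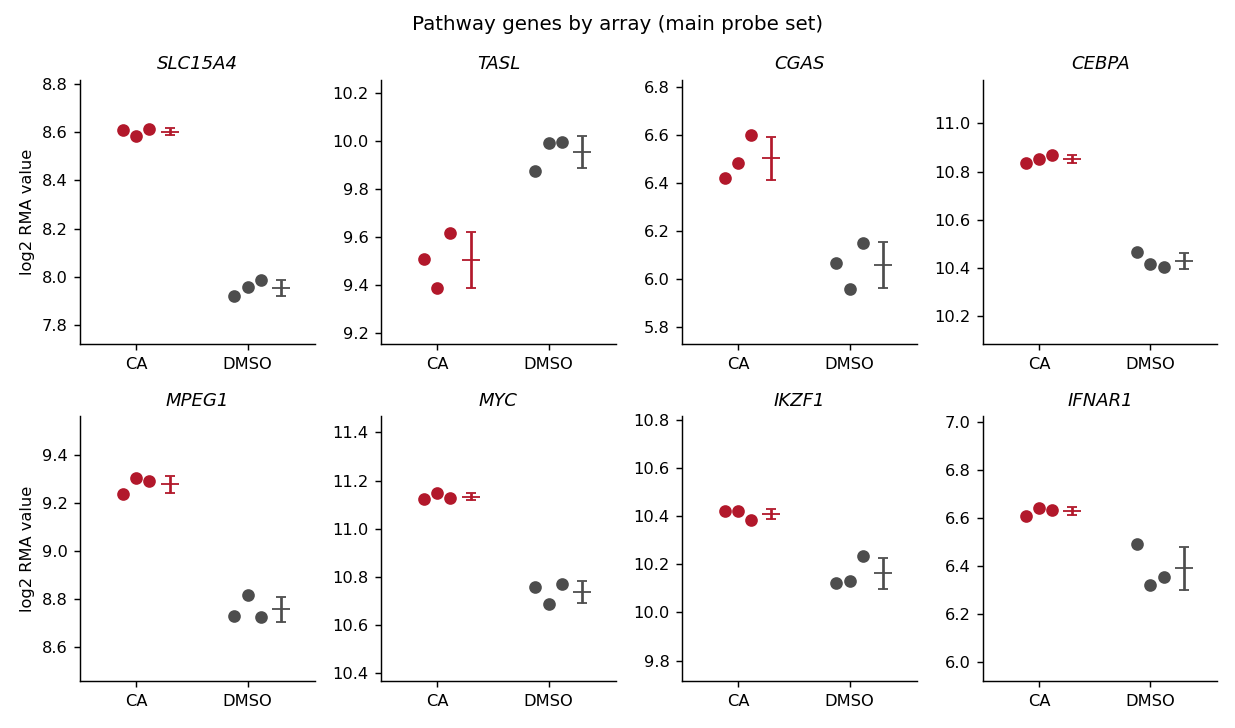
Log2 values of 8 pathway genes on each array, cortistatin A (CA, red) left of DMSO (grey), with a bar for the mean and SD (n = 3 arrays each); every panel spans the same log2 range. SLC15A4, CEBPA, MPEG1 and MYC stood higher with cortistatin A, and TASL was lower on all 3 of its arrays without passing the test.

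Of 38 measured ISRE target genes of type I interferon 0 were called, with a median of -0.005, 18 differences above 0 and 20 below. Over all genes 0.582% were called, so 0 calls on lists this short say little. Without adjustment, 3 of the 38 were higher and 1 lower at a limma p under 0.05. Of all 19775 genes, 1346 were higher and 1153 lower at that p, 12.6% in either direction. XAF1, a pro-apoptotic interferon target, differed by 0.31 ± 0.06 (limma adjusted p = 0.113), which shrank to 0.06 with the mean of its probe sets. HERC6, a dim ubiquitin ligase gene, differed by 0.18 ± 0.05 (limma adjusted p = 0.224) and the double-stranded RNA kinase EIF2AK2 by -0.25 ± 0.08 (limma adjusted p = 0.259). ISG15, a ubiquitin-like modifier and a standard marker of the response, read 7.42 with cortistatin A and 7.43 in DMSO. Of 28 measured genes linked to IRF1 and interferon gamma 0 were called as well, with a median of 0.01, and 1 was higher and 1 lower at an unadjusted limma p under 0.05. Its members with the smallest p were the death ligand TNFSF10 (-0.34 ± 0.07, limma adjusted p = 0.149), the guanylate-binding protein GBP2 (0.20 ± 0.08, limma adjusted p = 0.350, and 0.04 when its probe sets were averaged) and the class I transactivator NLRC5 (0.16 ± 0.07, limma adjusted p = 0.413). The peptide transporter gene TAP1 and the class I light chain gene B2M differed by -0.04 and -0.01.

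All 18 measured interferon ligand genes were dimmer than the overall median, and 0 were called (median 0.09). With 0.582% of all genes called, 0 calls on this and the other short lists here say little. IFNB1 differed by 0.33 ± 0.09 (limma adjusted p = 0.217) between means of 2.81 with cortistatin A and 2.48 in DMSO, near the floor of the arrays. IFNA21 and IFNA16 differed by 0.22 ± 0.07 and 0.17 ± 0.06 (limma adjusted p = 0.252 and 0.345), and their _x_at probe sets may read several of the near-identical interferon alpha genes. At an unadjusted limma p under 0.05, 3 ligand genes were higher and 0 lower. Of all 19775 genes, 1346 were higher and 1153 lower at that p. This share, 12.6% in either direction, also stands beside the unadjusted counts of the lists that follow. Of 11 measured receptors, JAK kinases and STATs 0 were called, with a median of 0.08. The type I receptor chain IFNAR1 differed by 0.24 ± 0.06 (limma adjusted p = 0.192), although 2 of its 3 other probe sets were at -0.01 and -0.004. STAT3, a mediator of IL-6 family cytokines, differed by -0.20 ± 0.05 (limma adjusted p = 0.202). Its 3 other probe sets overlapped between the groups and differed by -0.12, 0.04 and 0.31, and their mean with the main one turned STAT3 to 0.0077. The kinase JAK1 differed by -0.14 ± 0.05 (limma adjusted p = 0.312). Without adjustment, 2 of this list were higher and 2 lower at a limma p under 0.05. Of 11 measured restraints on interferon signalling 0 were called, with a median of -0.03, 0 higher and 1 lower at an unadjusted limma p under 0.05. The SUMO ligase PIAS1 differed by -0.19 ± 0.08 (limma adjusted p = 0.374), the IRF2 corepressor IRF2BP2 by 0.13 ± 0.06 (limma adjusted p = 0.452) and the JAK inhibitor SOCS1 by 0.20 ± 0.10 (limma adjusted p = 0.493). Other probe sets of PIAS1 were at -0.04 and -0.15, and those of IRF2BP2 at 0.01 to 0.12. The other bright probe sets of SOCS1 were at -0.001 and -0.014, and a dim one was at 0.20.

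The genes whose log2 values over the 6 arrays were most like those of IRF8, by Pearson's r among 12642 other bright genes, were NKAPP1 (r = 0.998), HS3ST3B1 (r = 0.998), TIMM8A (r = 0.997) and GTF2A1 (r = 0.997). All 4 were called higher, by 0.41, 0.64, 0.38 and 0.34, though the mean of probe sets gave HS3ST3B1 0.23 and TIMM8A 0.14. The 6 arrays fall into 2 groups, and any gene with a clear rise shares this shape, as 226 genes had an r above 0.95. For IRF1 the most like were DAGLA (r = 0.990), ELP5 (r = 0.985), ERBB3 (r = 0.985) and AGPAT5 (r = 0.981), with differences of 0.10, 0.02, 0.22 and 0.03 and 0 of the 4 called. Only 19 genes were that close to IRF1 at an r above 0.95. These values describe the same arrays, with no test.

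Over the whole series limma called 115 genes, 88 higher and 27 lower, and 0 to 4 when 1 array was left out. Of the 10 measured markers of a myeloid leukaemia line 8 were bright, as were 12643 of all 19775 genes. The same held for 4 of 8 T and NK, 4 of 5 B and 6 of 6 erythroid and platelet markers. It held for 2 of 7 epithelial and stromal markers, so this count does not identify the cells. Among the myeloid markers, LYZ was at 12.43 with cortistatin A and 12.40 in DMSO and FLT3 at 9.46 and 9.65. MPO was at 5.21 and 5.24, and the monocyte marker CD14 was dim at 2.63 and 2.74. These 4 were flat or lower, but over the 10 markers 7 differences were above 0 and 3 below. Their median was 0.06 and 0 were called. The groups did not overlap for 2 higher, MEIS1 (0.18) and the dim FCGR1A (0.30), and 1 lower, FLT3. Over all genes 10.2% were higher and 9.22% lower without overlap. The mean level of 8 T and NK cell markers was 3.78 to 3.83 with cortistatin A and 3.74 to 3.85 in DMSO. Of these, NKG7 was at 7.90 and 7.86. Of the 26 measured markers of T and NK, B, erythroid and platelet, epithelial and stromal cells 0 were called. The share called over all genes was 0.582%. CDK8, CDK19 and CCNC were not called (limma adjusted p = 0.824, 0.249 and 0.839). The 3' minus 5' signal of 3 human control transcripts, which is higher where labelled RNA is shorter, was 2.81 to 2.92 with cortistatin A and 2.76 to 2.78 in DMSO. As a covariate it left 0 genes called, with IRF8 at 0.41 (limma adjusted p = 0.380), IRF4 at 0.43 (limma adjusted p = 0.412) and IRF9 at -0.46 (limma adjusted p = 0.482). Because the index does not overlap between the groups, it cannot be told apart from the treatment.

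**Figure D5:**
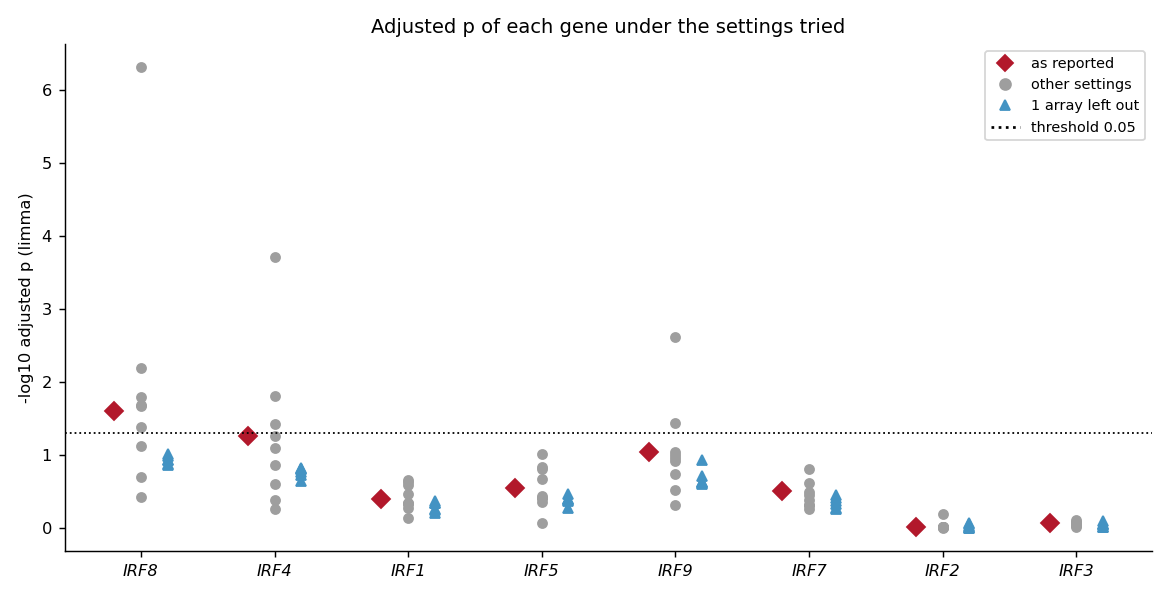
The −log10 of the limma adjusted p of each gene as reported (red diamond), under the other settings (grey) and with 1 array left out (blue triangles); the dotted line is the threshold of 0.05. IRF8 lies above the line as reported and below it whenever an array is left out, and IRF1, IRF5, IRF7, IRF2 and IRF3 lie below it under every setting shown.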

How the data were processed

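RNA of MV4;11 cells was hybridised to single-colour Affymetrix Human U133 Plus arrays, 3 with cortistatin A and 3 with DMSO. The authors deposited 1 log2 value per probe set and array, made with RMA and the affy package, per the submitters' processing notes, with no version. RMA in its usual form subtracts background, aligns the distributions of all arrays and summarises probes, so a shift of all transcripts would be removed and dim changes are compressed. The scale was taken as log2 because values lay between 0.81 and 13.84. Arrays have no sequencing depth, and their number limits precision.

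Of 54675 probe sets, 62 are controls and 41091 name 1 gene in the platform annotation. Of these, 41037 were matched to RefSeq by gene identifier and took its symbol, which may equal the platform symbol. Each of 19775 genes was represented by its brightest single-gene probe set. The groups were compared in R 4.3.3 by limma 3.58.1, using lmFit and eBayes with group as the only term, a two-sided test and no filter, and the procedure was also tested on simulated data. Alternatives were a replicate block, leaving out dim genes, the mean of probe sets, leaving out _x_at and _s_at types, quantile normalization, housekeeping centring, trend and robust variances, testing every probe set, a 3' to 5' covariate and leaving out each array. Genes named were the 8 members, the 3 of each list with the smallest p, the drug targets with their cyclin, and the 4 most like IRF8 and IRF1. Further genes (SPI1, LYZ, CST3, CTSS, ISG15, TAP1, B2M, FLT3, MPO, MEIS1, FCGR1A, NKG7 and CD14) were chosen after their values were seen. Members, lists and alternatives were chosen with earlier results of these data known. Gene coordinates come from RefSeq (GRCh38.p14), and are those of the genes, not of the probes. No pair of arrays shared more than 678 identical values. Some items are not reported here.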

Additional observations from a re-analysis of the deposited data

How the results depend on the processing

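Differences below are cortistatin A minus DMSO on the log2 scale, and p-values are limma adjusted p. Replicate numbers 1 to 3 recur in both groups but did not pair the arrays: same-numbered arrays had correlations of their deviations of -0.05, 0.01 and 0.02. With the replicate block limma called 0 genes, 0 members and 0 list genes (2243 genes at an unadjusted p under 0.05), and IRF8 was at 0.47 (limma adjusted p = 0.202). Without dim genes it called 321 genes, 3 members and 8 list genes, with IRF4 at 0.40 (limma adjusted p = 0.0157) and IRF9 at -0.52 (limma adjusted p = 0.0364). With trend and robust variances it called 762 genes, 3 members and 13 list genes, with IRF4 at 0.40 (limma adjusted p = 0.000195) and IRF9 at -0.52 (limma adjusted p = 0.00239). With all probe sets tested it called 28, with 0 members and 1 list gene past the threshold, and IRF8 at 0.47 (limma adjusted p = 0.0761). Adding the index of control transcripts as a covariate, it called 0 genes, 0 members and 0 list genes (1934 at an unadjusted p under 0.05), IRF8 was at 0.41 (limma adjusted p = 0.380) and IRF2 turned to -0.029. Housekeeping centring called 2 members, with IRF4 at 0.46 (limma adjusted p = 0.0379), turned IRF3 to 0.027 and CDK8 to 0.0047, and gave 89.4% of calls higher, against 76.5%. The mean of probe sets gave 76 genes and probe sets without _x_at and _s_at 54. The mean turned STAT3 to 0.0077, SLAMF7 to -0.020 and CCNC to -0.068, and leaving out _x_at and _s_at turned SLAMF7 to -0.15. Without 1 array limma called 0 to 4 genes (1952 to 2342 at an unadjusted p under 0.05), 0 members and 0 list genes. IRF8 then ranged from 0.44 to 0.50 (limma adjusted p = 0.0960 to 0.138), IRF2 from -0.034 to 0.037 (turned without DMSO replicate 2 and, at -0.0025, without CA replicate 3) and CDK8 from -0.11 to 0.012 (turned without CA replicate 2). IRF8, IRF4, IRF1, IRF5, IRF7 and IRF9 kept their direction in every alternative that measured them, and IRF7 was not measured without _x_at and _s_at. Where no cause is given, the cause was not tested.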

Other observations

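Several activators outside the 3 genes with the smallest p on their list, chosen here after their values were seen, had groups that did not overlap. TANK, an adaptor of the kinase TBK1, averaged 6.93 with cortistatin A and 7.35 in DMSO (-0.42 ± 0.11, limma adjusted p = 0.211), TBK1 itself 7.43 and 7.64 (-0.21 ± 0.06, limma adjusted p = 0.239) and the ubiquitin ligase TRAF6 6.39 and 6.59 (-0.20 ± 0.06, limma adjusted p = 0.267). The dim endosomal receptor gene TLR7 averaged 3.38 with cortistatin A and 2.99 in DMSO (0.38 ± 0.14, limma adjusted p = 0.334). None of these 4 genes passed the threshold. With TASL they make 4 lower and, with SLC15A4 and CGAS, 3 higher genes among the 24 activators whose groups did not overlap, where 19.4% of all genes did not overlap, 10.2% higher and 9.22% lower.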
